A study of Mus musculus with 12 samples.

Results

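The heat shock chaperones examined here are 10 genes, taken by name from 23996 gene rows in each of 2 deposited tables: Hspa1a, Hspa1b, Hsph1, Dnajb1 and Hsp90aa1 as inducible cytosolic chaperones, Hspa8, Hsp90ab1 and Dnaja1 as constitutive cytosolic chaperones, and Hspd1 and Hspe1 as mitochondrial chaperones. All 10 had a row in each table and passed the authors' minimum for testing in both. Monocytes from C57Bl/6 mice were profiled by RNA-seq, with 4 groups and 3 samples in each. These were Ly6Clow (patrolling) monocytes of mice given muramyl dipeptide (MDP), with a time of 16 h in the titles, Ly6Clow monocytes of mice given placebo, with Naive in the titles, and Ly6Chigh (inflammatory) monocytes of mice given MDP, again 16 h, or placebo, again Naive. MDP is the part of bacterial peptidoglycan that the receptor NOD2 senses. Age, sex and any pooling of animals are not given in the sources used here.

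Each table holds 1 value per condition, in FPKM (fragments scaled for transcript length and library size), under the names q1 and q2. The sources do not tie q1 or q2 to MDP or placebo, so every difference is q2 over q1 and says nothing of the direction of the MDP effect. The words rose and fell below mean higher and lower in q2 than in q1, with neither condition taken as the baseline. No value per sample exists in the tables, the depth is unknown, and no spread can be set beside a level; the only error is that inside the authors' own Cuffdiff test, given here as its q-value, with a call at q under 0.05. Separate animals for each sample are not documented, so the spread behind these q-values may be technical. The marker genes went with the table names: Ly6c2, which encodes the Ly6C antigen, was at 3.98 FPKM in q2 and 5.78 in q1 of the Ly6Clow table and at 1054 and 1312 in the Ly6Chigh table, in the authors' values.

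Chaperones bind unfolded or newly made proteins and let them fold. The cytosolic HSP70 and HSP90 machines use ATP, and HSP70 is fed with clients by J proteins and reset by nucleotide exchange factors. The mitochondrial chaperonin HSP60 and its lid HSP10 form a folding chamber in the matrix. In unstressed cells the constitutive forms carry this work. When unfolded proteins build up, the factor HSF1 binds heat shock elements, alternating GAA and TTC units in promoters, and induces the stress forms. In macrophages and monocytes HSP90 also keeps signalling proteins stable, among them NOD2.

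More of these chaperones were called in Ly6Clow than in Ly6Chigh monocytes. In Ly6Clow monocytes 6 of 10 were called higher in q2 and 0 lower: Hspe1, Hspa1a, Hspa1b, Hsp90aa1, Hsp90ab1 and Hspd1, between 1.28-fold and 1.84-fold, in the authors' deposited table. Of the 12042 genes tested there, 14.2% were called higher and 12.2% lower. In Ly6Chigh monocytes 1 of 10, Hsp90aa1, was called higher (1.54-fold) and 0 lower in the authors' deposited table, where the shares of all tested genes were 7.07% higher and 7.54% lower. At an unadjusted Cuffdiff p under 0.05, 7 members of the Ly6Clow table and 3 of the Ly6Chigh table passed, each of them higher in q2. Shares of all tested genes were counted at q under 0.05 only. Counts at an unadjusted p, here and below, thus have no background beside them. Whether the 2 subsets differ in these q2 over q1 differences was not tested.

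**Figure D1:**
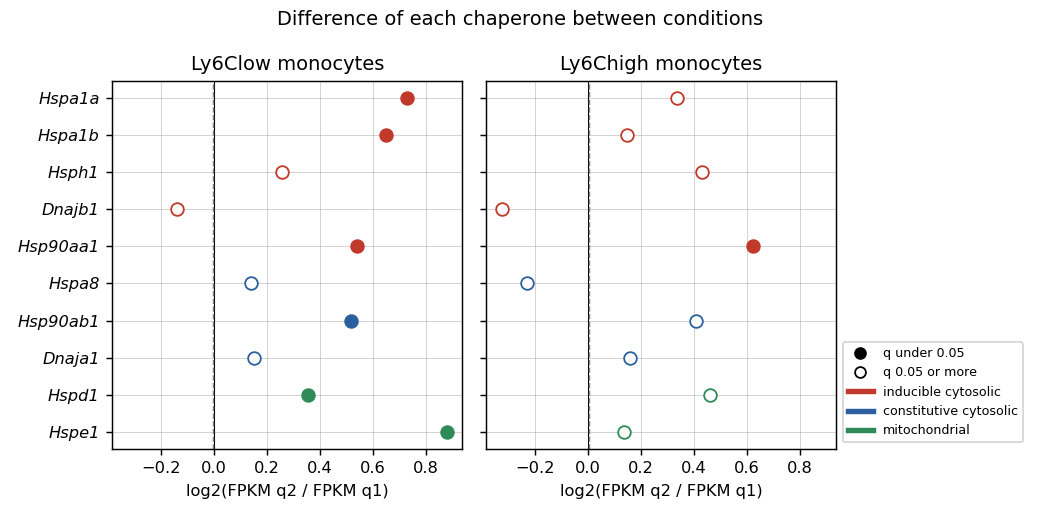
The log2 ratio of FPKM in q2 over q1 (horizontal axis) for each chaperone (vertical axis) in Ly6Clow and Ly6Chigh monocytes; filled points passed q under 0.05, colours give the class, and the dashed line is the median of all tested genes. In Ly6Clow monocytes 6 points are filled and in Ly6Chigh monocytes 1, and Dnajb1 lies left of zero in both.

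The size of the differences was small throughout. The median log2 fold change of the 10 members was 0.44 in Ly6Clow and 0.25 in Ly6Chigh monocytes, against -0.004 and 0.005 over all tested genes, and no member reached 1 in size. The sign of q2 over q1 was the same in both subsets for 9 of 10 members, the exception being Hspa8, though the 2 tables may not number the conditions alike; among 11375 genes tested in both tables, 71.7% had the same sign. Of the 10 members, 8 were higher in q2 in both subsets, called or not, against 35.9% of those genes.

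Levels ranged over 3 orders of magnitude, and the order by FPKM, which is per length, was led by constitutive forms. Hspa8, the constitutive HSP70 also known as HSC70, stood at 922 FPKM in q2 and 837 in q1 of Ly6Clow monocytes and at 1197 and 1402 in Ly6Chigh monocytes. That is above 99.1% of tested genes or more in each condition. Hsp90ab1, the constitutive HSP90, came next, and Hsp90aa1 and Hspe1 followed at a lower level. Hspd1, Dnajb1, Dnaja1 and Hsph1 came below them, the highest of their values being 51.4 FPKM. The stress-inducible Hspa1a and Hspa1b were lowest, between 0.679 and 2.51 FPKM in all 4 conditions. With 1 value per condition, it cannot be said which neighbours in this order differ beyond their spread. The constitutive class held 84.8% of the members' summed FPKM in q2 and 86.4% in q1 of Ly6Clow monocytes, and 86.7% and 89.1% in Ly6Chigh monocytes.

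**Figure D2:**
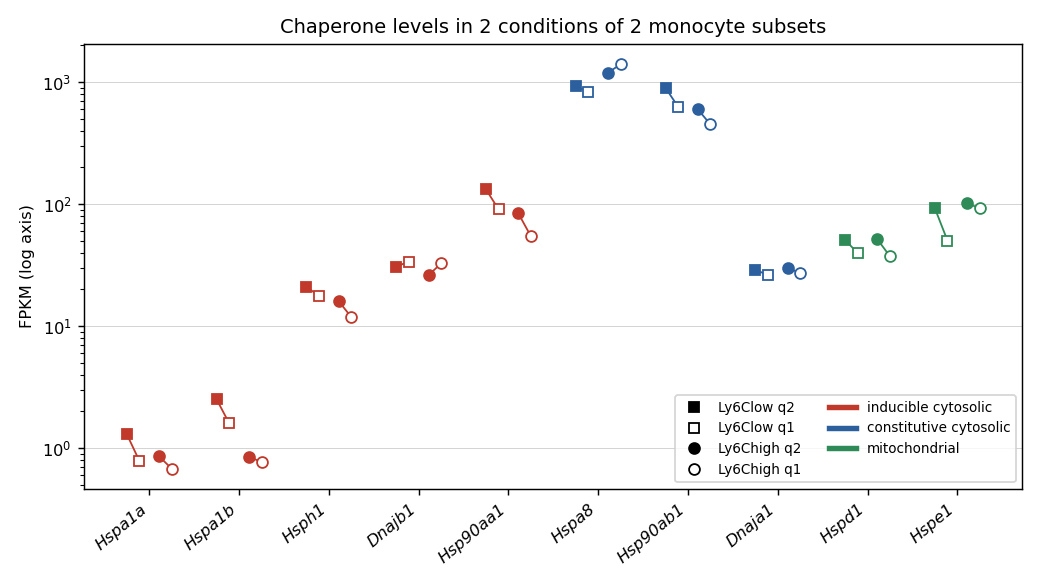
FPKM on a log axis for each chaperone, with q2 filled and q1 open, Ly6Clow as squares and Ly6Chigh as circles, coloured by class. Hspa8 and Hsp90ab1 lie at 449.8 FPKM or more in every condition, and Hspa1a and Hspa1b at 2.51 or less.

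Hspa1a and Hspa1b encode the stress-inducible cytosolic HSP70, which is scarce in resting cells and made in bulk after heat shock. They are single-exon genes on the minus strand of chromosome 17, by GENCODE, with deposited loci (mm10, as all loci here) at chr17:34969358-34972156 for Hspa1a and chr17:34956428-34959238 for Hspa1b. In Ly6Clow monocytes Hspa1a was at 1.30 FPKM in q2 and 0.785 in q1, and it rose 1.66-fold (q = 0.0201 in the authors' deposited table). Hspa1b was at 2.51 FPKM in q2 and 1.60 in q1, and it rose 1.57-fold (q = 0.00602 in the authors' deposited table). Both were low in either condition, at no more than the 24.1 percentile of tested genes. In Ly6Chigh monocytes Hspa1a was at 0.856 and 0.679 FPKM (q = 0.701), and the values of Hspa1b were 0.852 and 0.769 FPKM (q = 0.894, each from the authors' deposited table). Neither passed there, at a depth that is unknown.

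The pair cannot be read as independent genes. Of the 50-base words in the Hspa1b transcript, 62.3% also occur in Hspa1a, and the sources used here do not say how reads that match both were counted. The 250 bases before the RefSeq start of each gene are 98.8% identical, with 3 differing bases. They are shown, 5′ to 3′ on the minus strand (GRCm38.p6, the same assembly as mm10), because both genes were called higher in Ly6Clow monocytes; capitals mark a heat shock element pair of units, GAANNTTC, whose first base lies 104 bases before the start in both. Hspa1a is at chr17:34972157-34972406 and Hspa1b at chr17:34959239-34959488.
Hspa1a: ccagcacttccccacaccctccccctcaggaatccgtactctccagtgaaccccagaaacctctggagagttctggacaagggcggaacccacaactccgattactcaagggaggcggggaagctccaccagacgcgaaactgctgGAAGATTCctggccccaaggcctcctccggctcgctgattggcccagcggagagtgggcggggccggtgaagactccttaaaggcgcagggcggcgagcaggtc
Hspa1b: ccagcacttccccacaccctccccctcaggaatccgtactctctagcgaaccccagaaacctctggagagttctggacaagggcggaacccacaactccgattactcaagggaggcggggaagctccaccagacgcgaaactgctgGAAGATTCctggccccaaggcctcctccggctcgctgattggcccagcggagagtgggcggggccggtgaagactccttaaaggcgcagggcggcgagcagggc

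Hsp90aa1, the stress-inducible cytosolic HSP90, was the member called in both subsets. It was at 132 FPKM in q2 and 90.8 in q1 of Ly6Clow monocytes and rose 1.45-fold (q = 0.000418, the lowest this table allows, in the authors' deposited table). In Ly6Chigh monocytes it was at 84.0 FPKM in q2 and 54.6 in q1 and rose 1.54-fold (q = 0.0146 in the authors' deposited table). Both Ly6Clow values lie above both Ly6Chigh values, as they do for 30.0% of genes tested in both subsets. Of its 50-base words, 58.5% also occur in transcripts of other genes, none of which has a row in the tables. The gene lies at chr12:110691035-110696395 on the minus strand.

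Its constitutive partner Hsp90ab1 (chr17:45567777-45573261, minus strand) was at 896 FPKM in q2 and 627 in q1 of Ly6Clow monocytes, a 1.43-fold rise (q = 0.00181 in the authors' deposited table). In Ly6Chigh monocytes it was at 597 and 450 FPKM, 1.33-fold apart, and did not pass (q = 0.207 in the authors' deposited table). In Ly6Clow monocytes the inducible form thus rose beside the constitutive form, at 1.45-fold and 1.43-fold.

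Hsph1 encodes HSP110, a nucleotide exchange factor of HSP70 that heat shock also induces (chr5:149616844-149636315, minus strand). It was at 21.1 FPKM in q2 and 17.6 in q1 of Ly6Clow monocytes (q = 0.0718) and at 16.0 and 11.9 in Ly6Chigh monocytes (q = 0.15) in the authors' deposited table. It was higher in q2 in both subsets but passed in neither. Dnajb1 encodes HSP40, the inducible J protein that hands clients to HSP70 (chr8:83608174-83611903, plus strand). It was at 30.8 FPKM in q2 and 33.9 in q1 of Ly6Clow monocytes (q = 0.398) and at 26.2 and 32.7 in Ly6Chigh monocytes (q = 0.313) in the authors' deposited table. Dnajb1 was the inducible member with the lower value in q2 in both subsets, without passing the threshold.

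Promoter bases of Hsph1 and Dnajb1 are shown as those of the inducible members that passed in neither subset, on the gene's strand in GRCm38.p6, with capitals for GAANNTTC or TTCNNGAA. For Hsph1, 28 bases (chr5:149636352-149636379) are given around a pair that begins 54 bases before the start of the deposited locus. Most of them lie within the GENCODE gene, which reaches 149636376. A triple, TTCNNGAANNTTC, begins at base 16 after the start of the deposited locus. For Dnajb1 the 250 bases before the start are given (chr8:83607925-83608174), and these letters are not in its windows.
Hsph1: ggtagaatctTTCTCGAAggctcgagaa
Dnajb1: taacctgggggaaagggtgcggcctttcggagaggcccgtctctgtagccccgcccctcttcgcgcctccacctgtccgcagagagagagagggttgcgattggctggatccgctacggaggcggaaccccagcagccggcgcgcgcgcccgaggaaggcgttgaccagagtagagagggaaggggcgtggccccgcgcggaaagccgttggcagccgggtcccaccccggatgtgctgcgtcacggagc

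Among the constitutive members, Hspa8 (chr9:40801272-40805199, plus strand) did not pass in either subset (q = 0.521 in Ly6Clow and 0.618 in Ly6Chigh monocytes, in the authors' deposited table). Its q2 value was 1.10-fold of q1 in Ly6Clow monocytes and 0.854-fold in Ly6Chigh monocytes. Other annotated genes share 73.2% of its 50-base words. Dnaja1 encodes a constitutive J protein of the cytosol. It was at 29.1 FPKM in q2 and 26.2 in q1 of Ly6Clow monocytes (q = 0.525) and at 30.2 and 27.1 in Ly6Chigh monocytes (q = 0.769) in the authors' deposited table. All 4 values of Dnaja1 lie between 26.2 and 30.2 FPKM. The deposited locus of Dnaja1 (chr4:40720153-40757885) is 37733 bases long and overlaps the rows of Smu1, Mir207 and Gm6297, while the GENCODE gene spans 40722150 to 40737149 on the plus strand. Its promoter (chr4:40722218-40722467, GRCm38.p6), before a RefSeq start that is not the start of the deposited locus, is shown as that of a constitutive member that holds a pair of units, in capitals.
Dnaja1: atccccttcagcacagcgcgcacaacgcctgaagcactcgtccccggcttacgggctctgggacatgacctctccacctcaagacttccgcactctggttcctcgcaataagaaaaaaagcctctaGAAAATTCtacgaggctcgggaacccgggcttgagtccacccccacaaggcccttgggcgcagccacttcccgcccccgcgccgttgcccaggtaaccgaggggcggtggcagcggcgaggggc

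The mitochondrial pair was called in Ly6Clow monocytes. Hspe1 encodes HSP10, the lid of the chaperonin, and had the largest fold change of the 10 members there: it was at 92.3 FPKM in q2 and 50.2 in q1, and it rose 1.84-fold (q = 0.000418 in the authors' deposited table). Hspd1 encodes HSP60, the chaperonin ring. It was at 50.8 FPKM in q2 and 39.7 in q1 and rose 1.28-fold (q = 0.00702 in the authors' deposited table). In Ly6Chigh monocytes Hspe1 was at 102 and 92.5 FPKM (q = 0.757), and Hspd1 had 51.4 and 37.3 FPKM (q = 0.0885, both in the authors' deposited table). Hspd1 thus differed by similar folds in the 2 subsets, 1.28 and 1.38, and Hspe1 by 1.84 and 1.10.

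Hspd1 and Hspe1 lie head to head on chromosome 1, Hspd1 at chr1:55077833-55087932 on the minus strand and Hspe1 at chr1:55088147-55091317 on the plus strand, and share the bases between them as a promoter. From these, 28 bases are shown on the plus strand (chr1:55088054-55088081, GRCm38.p6). Capitals mark 4 alternating units, TTC, GAA, TTC and GAA, that begin 89 bases before the Hspe1 start. Other annotated genes share 44.8% of the 50-base words of Hspd1 and 36.1% of those of Hspe1.
Hspd1-Hspe1: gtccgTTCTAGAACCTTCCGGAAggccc

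RefSeq promoter windows, from 250 bases before to 50 after a start, were matched for 7 of the 10 members; Hspa8, Hsp90aa1 and Hsp90ab1 had none. GAANNTTC or TTCNNGAA, which read the same on both strands, occurred in a window of 6 of the 7. That compares with 17.0% of 27025 genes. The triples GAANNTTCNNGAA or TTCNNGAANNTTC, each of which contains both pairs, occurred for 3 of the 7 (Hsph1, Hspd1 and Hspe1) and for 0.662% of genes. The 6 are not separate cases, since Hspa1a and Hspa1b have near-identical windows and Hspd1 and Hspe1 share the same run of units. Dnajb1 was the member without a match. A match describes letters and is no evidence of binding in these cells.

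By class, calls fell in all 3 groups. In Ly6Clow monocytes 3 of 5 inducible, 1 of 3 constitutive and 2 of 2 mitochondrial members were called higher, and in Ly6Chigh monocytes 1 of 5, 0 of 3 and 0 of 2 (at an unadjusted Cuffdiff p under 0.05, 2 of 5, 0 of 3 and 1 of 2). The shares of all tested genes called higher at q under 0.05 were 14.2% in the Ly6Clow and 7.07% in the Ly6Chigh table. The shares at an unadjusted p were not counted. The median log2 fold change in Ly6Clow monocytes was 0.54 for inducible, 0.15 for constitutive and 0.62 for mitochondrial members. In Ly6Chigh monocytes it was 0.34, 0.16 and 0.30. The order of the cytosolic classes depends on the pseudocount and on where Hsp90aa1 and Dnaja1 are placed. With a pseudocount of 1 it turned round in Ly6Chigh monocytes, at 0.145 for inducible and 0.155 for constitutive members. With Hsp90aa1 counted as constitutive and Dnaja1 as inducible, the medians were 0.26 for inducible and 0.52 for constitutive members in Ly6Clow monocytes, and 0.16 and 0.41 in Ly6Chigh monocytes. Summed FPKM in q2 over q1 was 1.30-fold for inducible, 1.24-fold for constitutive and 1.59-fold for mitochondrial members in Ly6Clow monocytes. In Ly6Chigh monocytes it was 1.27-fold, 0.971-fold and 1.18-fold.

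Ratios between partners, which do not depend on the scaling of a condition, describe the balance of their RNA and not of the proteins. The summed FPKM of Hspa1a and Hspa1b was 0.00413 of that of Hspa8 in q2 and 0.00285 in q1 of Ly6Clow monocytes, and 0.00143 and 0.00103 in Ly6Chigh monocytes. Hspa8 thus exceeded the inducible pair by 242-fold or more in each condition. Hsp90aa1 was at 0.147 of Hsp90ab1 in q2 and 0.145 in q1 of Ly6Clow monocytes, a near-equal ratio, and at 0.141 and 0.121 in Ly6Chigh monocytes. Hspe1 over Hspd1 was 1.82 in q2 and 1.27 in q1 of Ly6Clow monocytes, and 1.98 and 2.48 in Ly6Chigh monocytes. This ratio of RNA was thus higher in q2 in Ly6Clow monocytes and lower in Ly6Chigh monocytes, where neither gene passed. No test was made on these ratios.

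**Figure D3:**
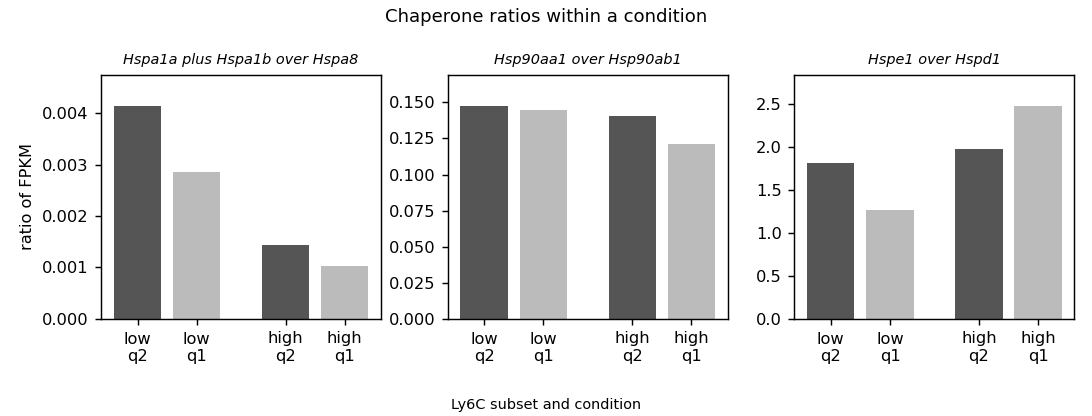
Ratios of FPKM within a condition for 3 pairs of partners, in Ly6Clow (low) and Ly6Chigh (high) monocytes, with q2 dark and q1 light; each axis starts at 0. Hspa1a plus Hspa1b is at most 0.00413 of Hspa8, and Hspe1 over Hspd1 lies at 1.82 and 1.27 in Ly6Clow and at 1.98 and 2.48 in Ly6Chigh monocytes.

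Between the subsets, levels were set side by side with no test, since the tables may have been scaled separately and q1 and q2 need not name the same treatment in both. Both Ly6Clow values lay above both Ly6Chigh values for 4 members: Hspa1b, Hsph1, Hsp90aa1 and Hsp90ab1. Among 11401 genes tested in both tables this was so for 30.0%. Both Ly6Clow values lay below both Ly6Chigh values for 2 members, Hspa8 and Hspe1, against 27.9% of those genes. The gap for Hspe1 was narrow, 92.3 FPKM as the upper Ly6Clow value and 92.5 as the lower Ly6Chigh value. Hspa1a, Dnajb1, Dnaja1 and Hspd1 overlapped. These counts of members lie near the shares of all genes, so they show nothing particular to the chaperones. The ratio of Hspa8 to Hsp90ab1 was 1.03 in q2 and 1.33 in q1 of Ly6Clow monocytes, and 2.005 and 3.12 in Ly6Chigh monocytes.

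The mean log2 fold change of the 5 inducible members was 0.41 in Ly6Clow and 0.24 in Ly6Chigh monocytes. Of 9696 other genes tested in both tables with at least 1 FPKM in every condition, 148 lay within a distance of 0.1 of that pair of values. The nearest 5 were 1110012L19Rik, Dnmt1, Cops6, Cnnm4 and B3gnt5, at distances of 0.0073 to 0.0231. Dnmt1 encodes the maintenance DNA methyltransferase and Cops6 a subunit of the COP9 signalosome. With 2 values per gene this likeness is weak, and it is given as a description.

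Beyond the members, TRiC, the cytosolic chaperonin that folds actin and tubulin, had every subunit gene called in Ly6Clow monocytes. There 8 of 8 subunit genes were called higher in q2, between log2 fold changes of 0.34 and 0.60, beside 14.2% of all tested genes. In Ly6Chigh monocytes 2 of 8 were called higher, beside 7.07%. Called or not, 8 of 8 were higher in q2 in both subsets. Their median log2 fold change was 0.39 in Ly6Clow and 0.33 in Ly6Chigh monocytes. Cct3 was at 99.1 FPKM in q2 and 65.3 in q1 of Ly6Clow monocytes (q = 0.000418) and at 89.2 and 53.4 in Ly6Chigh monocytes (q = 0.00226) in the authors' deposited table. Cct6a rose 1.37-fold in Ly6Clow (q = 0.000418) and 1.46-fold in Ly6Chigh monocytes (q = 0.0295), and Cct5 by 0.48 on the log2 scale in Ly6Clow monocytes (q = 0.000418), in the authors' deposited table. Of 6 genes of prefoldin, which passes nascent actin and tubulin to TRiC, 3 were called higher in Ly6Clow and 0 in Ly6Chigh monocytes, where 2 had an unadjusted Cuffdiff p under 0.05, 1 in each direction. Those called were Pfdn4 and Pfdn1, each about 0.54 on the log2 scale, and Pfdn6, listed under its older symbol H2-Ke2, at 0.39.

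Co-chaperones of HSP90 and HSP70 were called higher in both subsets and lower in neither. Of 16 HSP90 co-chaperone genes 4 were called higher in Ly6Clow and 4 in Ly6Chigh monocytes, beside 14.2% and 7.07% of all tested genes. Fkbp5, an immunophilin of the HSP90 and steroid receptor complex that glucocorticoids induce, was at 9.12 FPKM in q2 and 3.94 in q1 of Ly6Clow monocytes (q = 0.000418) and at 24.6 and 4.596 in Ly6Chigh monocytes (q = 0.000859) in the authors' deposited table. Its 2.31-fold and 5.35-fold rises exceeded that of every member. Cacybp rose 1.25-fold in Ly6Clow (q = 0.0221) and 1.49-fold in Ly6Chigh monocytes (q = 0.0307) in the authors' deposited table. Fkbp4, the related immunophilin, rose 1.30-fold in Ly6Clow (q = 0.0044) and Nudcd2 1.84-fold in Ly6Chigh monocytes (q = 0.00991) in the authors' deposited table.

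Among HSP70 co-chaperones, 4 of 11 tested genes were called higher in Ly6Clow and 2 of 10 in Ly6Chigh monocytes, beside the same shares of 14.2% and 7.07%. Stip1, or HOP, which links HSP70 to HSP90, was at 92.5 FPKM in q2 and 69.5 in q1 of Ly6Clow monocytes (q = 0.000788) and at 56.98 and 38.3 in Ly6Chigh monocytes (q = 0.0307) in the authors' deposited table. The exchange factor gene Bag1 rose 1.27-fold in Ly6Clow (q = 0.00846) and Hspbp1 1.61-fold in Ly6Chigh monocytes (q = 0.0209) in the authors' deposited table. Bag2 was called higher in Ly6Clow monocytes at 0.299 and 0.0811 FPKM, a very low level (q = 0.0364 in the authors' deposited table).

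The counts of the remaining lists stand beside the shares of all tested genes. Those were 14.2% called higher and 12.2% lower in Ly6Clow, and 7.07% and 7.54% in Ly6Chigh monocytes. At such shares a list with few tested genes may hold no call, so the short lists show nothing particular. Of 3 tested genes for heat shock factors and their binding protein, 0 were called in either subset, and 0 of them had an unadjusted p under 0.05 by Cuffdiff; Hsf1 was at 33.7 FPKM in q2 and 36.3 in q1 of Ly6Clow monocytes and at 27.0 and 26.8 in Ly6Chigh monocytes, and was picked for mention with its values known. Of 6 tested other HSP70 and HSP110 genes, Hspa4l alone was called, 1.51-fold higher in Ly6Clow monocytes (q = 0.000788 in the authors' deposited table). Of the small heat shock protein genes 0 were called, with 4 tested in Ly6Clow and 3 in Ly6Chigh monocytes, and 0 of them had an unadjusted p under 0.05 by Cuffdiff. Other J protein genes were called higher in 1 and lower in 2 of 22 cases in Ly6Clow monocytes, and lower in 1 of 21 in Ly6Chigh monocytes. Dnajb13, a J protein known from sperm flagella, was at 3.31 FPKM in q2 and 13.1 in q1 of Ly6Clow monocytes (q = 0.000418). In Ly6Chigh monocytes it was at 6.94 in q2 and 16.4 in q1 (q = 0.000859), both in the authors' deposited table. Dnajb2 rose by 0.49 on the log2 scale (q = 0.0213) and Dnajb4 was 0.743-fold of q1 (q = 0.0209) in Ly6Clow monocytes, in the authors' deposited table.

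Few other genes of mitochondrial chaperones and proteases were called, beside the same shares of all tested genes. Of 17 tested genes, 1 was called higher and 1 lower in Ly6Clow monocytes, with a median log2 fold change of -0.01, and 1 was called higher in Ly6Chigh monocytes. Clpb, a mitochondrial disaggregase, rose 1.54-fold in Ly6Clow (q = 0.000418) and 1.65-fold in Ly6Chigh monocytes (q = 0.0339), and the protease gene Htra2 was at 129 FPKM in q2 and 176 in q1 of Ly6Clow monocytes (q = 0.000418), in the authors' deposited table. Hspa9, the mitochondrial HSP70, was at 37.0 and 32.3 FPKM in Ly6Clow monocytes (q = 0.177 in the authors' deposited table); it was chosen for mention after its values were seen. Of 4 tested genes that heat also induces, 2 were called lower in Ly6Clow and 1 in Ly6Chigh monocytes, beside 12.2% and 7.54%. Hmox1, heme oxygenase, was at 80.6 FPKM in q2 and 115 in q1 of Ly6Clow monocytes (q = 0.000418) and at 56.1 and 94.6 in Ly6Chigh monocytes (q = 0.000859) in the authors' deposited table. Over the 10 other chaperone lists together, 97 genes were tested in Ly6Clow monocytes. Of these 22 were called higher and 5 lower, beside 14.2% and 12.2% of all tested genes. In Ly6Chigh monocytes 94 were tested, of which 9 were called higher and 2 lower, beside 7.07% and 7.54%. The calls higher there were near the share of the whole table. Called or not, 60 of 97 were higher in q2 in Ly6Clow and 68 of 94 in Ly6Chigh monocytes. Their median log2 fold changes were 0.10 and 0.15, against -0.004 and 0.005 over all tested genes.

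**Figure D4:**
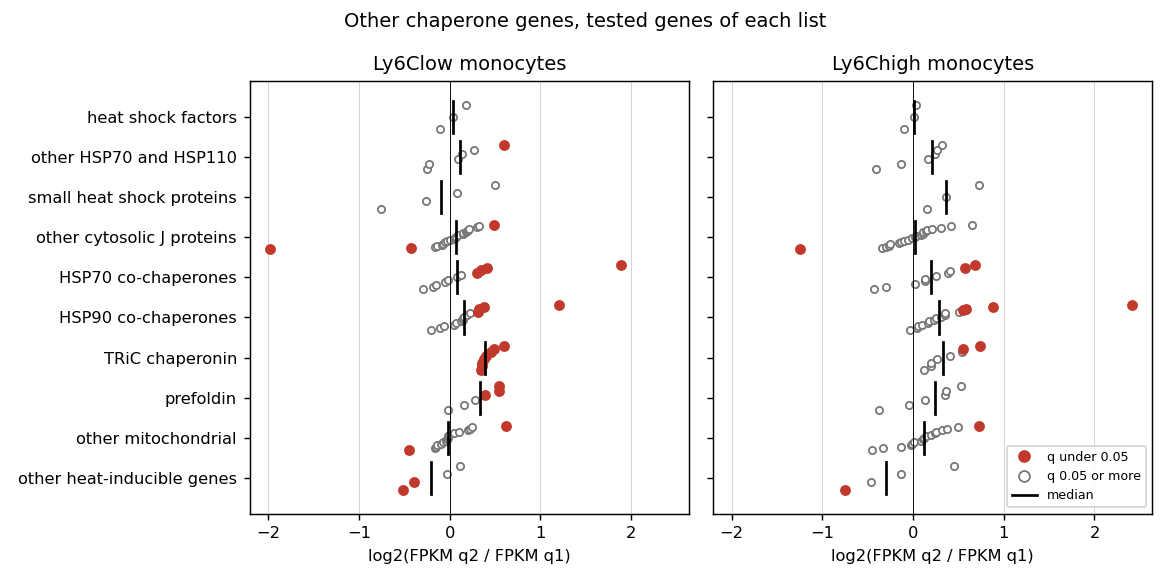
The log2 ratio of FPKM in q2 over q1 for each tested gene of 10 chaperone lists (rows), in Ly6Clow and Ly6Chigh monocytes; red points passed q under 0.05 and black bars are list medians. All 8 TRiC points of Ly6Clow monocytes are red, and the rightmost red point of Ly6Chigh monocytes is Fkbp5.

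Immediate early genes, which cells induce soon after a stimulus, were mostly called lower where they were called. In Ly6Clow monocytes this held for 12 of 18 tested genes, with 1 called higher, and in Ly6Chigh monocytes for 7 of 17, with 3 called higher. The shares of all tested genes called lower were 12.2% and 7.54%. Fos was at 37.1 FPKM in q2 and 310 in q1 of Ly6Clow monocytes (q = 0.000418). In Ly6Chigh monocytes it was at 323 in q2 and 1168 in q1 (q = 0.000859), both in the authors' deposited table. Egr1 was at 42.6 and 203 FPKM in Ly6Clow monocytes, where Egr2 was the gene called higher, at 8.10 and 1.59 (each q = 0.000418 in the authors' deposited table). In Ly6Chigh monocytes Fosb was at 8.30 and 37.9 FPKM and Atf3 at 36.2 and 136 (each q = 0.000859 in the authors' deposited table). The part of these genes' differences in the chaperone results was not tested.

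Markers of other cells moved between the conditions as well, and their part in the chaperone results was not tested; in bulk RNA, fewer cells of a type and less RNA per cell cannot be told apart. The shares of all tested genes, for every count here, were 14.2% higher and 12.2% lower in Ly6Clow, and 7.07% and 7.54% in Ly6Chigh monocytes. In Ly6Clow monocytes 4 of 6 B cell markers were called higher in q2 and 0 lower, with a summed level of 233 FPKM in q2 and 159 in q1. Of 6 natural killer cell markers 3 were higher (54.6 and 37.7 FPKM). Of 3 tested neutrophil markers 2 were higher, S100a8 and S100a9 (list sum 22.8 and 12.3, with Elane listed at 0 in both conditions). Of 8 erythroid and platelet markers 2 were higher, the erythroid Hbb-bt and Alas2 (list sum 1069 and 916). The platelet genes Pf4, Ppbp and Itga2b had lower values in q2 without passing. Dendritic cell markers went both ways, 3 higher and 2 lower of 6 (218 and 153 FPKM). Of 7 tissue macrophage markers 1 was higher and 5 were lower (95.2 and 240 FPKM), and of 7 T cell markers 1 was lower (6.25 and 6.75). In Ly6Chigh monocytes 2 of 5 tested neutrophil markers were called higher, S100a8 (422 and 62.9 FPKM) and S100a9 (89.0 and 28.3). These 2 made up most of the list sum (556 and 151). Mmp8 (41.9 and 59.0) and Cxcr2 (0.656 and 0.75) had lower values in q2 without passing. Elane had a higher value without passing (1.28 and 0.190). In the same cells 3 of 6 dendritic cell markers were lower (6.60 and 81.6). There 0 of 6 B cell markers (61.5 and 81.0 FPKM) and 0 of 7 T cell markers (3.57 and 5.86) were called, and 1 of each list had an unadjusted Cuffdiff p under 0.05. Also in Ly6Chigh monocytes 2 of 5 natural killer cell markers were lower (2.90 and 9.11). Of 6 erythroid and platelet markers 2 were lower (list sum 506 and 588), the platelet genes Pf4 and Ppbp, while no erythroid gene was called. Of 5 macrophage markers 3 were higher and 2 lower (104 and 123). The monocytes' own marker lists moved too, and their part in the chaperone results was likewise not tested. In Ly6Clow monocytes 1 of 8 patrolling monocyte markers was called higher and 4 lower, with a summed level of 3504 FPKM in q2 and 4930 in q1. Nr4a1, which encodes a factor that Ly6Clow monocytes need, was at 819 FPKM in q2 and 1514 in q1 (q = 0.000418 in the authors' deposited table). Of 5 tested inflammatory monocyte markers there, 1 was higher and 1 lower (146 and 147 FPKM). In Ly6Chigh monocytes 1 of 7 inflammatory monocyte markers was called higher and 2 lower (2560 and 3228 FPKM), and of 8 patrolling monocyte markers 2 were higher and 3 lower (790.2 and 1025). Housekeeping genes were called higher for 3 of 12 in each subset, namely Gapdh, Ppia and Pgk1, the first of them 1.66-fold in Ly6Clow and 2.41-fold in Ly6Chigh monocytes.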

How the data were processed

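Total RNA of monocytes was sequenced after TRI Reagent extraction and TruSeq library preparation, per the labels' protocols. Trimmomatic 0.33, TopHat2 2.0.14, Bowtie2 2.2.5, Cufflinks 2.21, Cuffdiff 2.21 and the build mm10 are named with no settings, per the submitters' processing notes. The deposited values are FPKM, 1 per condition, beside the authors' p-value and q-value, per the file headers; a table was tied to its subset by its name. How reads with several matches were counted is not stated there.

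Log2 fold changes were recomputed from the FPKM of q2 over q1 with no pseudocount. Calls are the authors' q under 0.05 across the whole table. The plan set MDP over placebo if a file named the conditions; none does. The members and gene lists were chosen with earlier results of these data known. Besides the members, the rule for naming takes the 3 called genes with the largest change in each chaperone list and the immediate early list, the most abundant gene of a marker list and the 5 genes nearest to the inducible mean; genes outside this rule are marked or belong to a count. Under this rule 1 gene of the chaperone lists is not reported here, and most marker lists are given by their counts and sums alone. Of the list genes, 2 were matched by an older symbol and 4 (Ly6g, Ighm, Ighd, Hba-a1) are not analysed here. Promoters are from RefSeq, GRCm38.p6; annotation and transcripts are from GENCODE. Shared words are runs of 50 bases in the longest coding transcript that also occur in a transcript of another gene. The deposited starts of Dnajb1 and Hspe1 lie 1 base before their RefSeq starts. Depth is unknown. The adjustment and call rule were tested on simulated data with Python 3.11.15, numpy 2.4.6 and pandas 2.3.3.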

Additional observations from a re-analysis of the deposited data

Results flagged for a closer look

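Cd209a, a lectin gene listed as a dendritic cell marker, was called in opposite directions in the 2 subsets: its log2 fold change was 0.59 in Ly6Clow and -4.29 in Ly6Chigh monocytes, in the authors' deposited table. Gzma, a granzyme gene listed as a natural killer cell marker, did likewise, at 0.95 in Ly6Clow and -1.70 in Ly6Chigh monocytes, in the authors' deposited table. The flag covered only the 10 chaperones and the genes picked by the naming rule. Other listed genes were called in opposite directions too. Among them were Jun (log2 fold change -0.74 in Ly6Clow and 0.60 in Ly6Chigh monocytes), Jund, C1qa (-0.99 and 1.97), C1qb and C1qc. The difference between the subsets was not tested for any of these genes, and none of the 10 chaperones was called in opposite directions.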

How the results depend on the processing

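A pseudocount cannot turn the sign of a ratio, and the medians of all genes are too close to 0 to turn that of any member, so the members' directions were not put to a test by these alternatives. In Ly6Chigh monocytes the 1 member called higher became 0 at q under 0.01 and 3 at an unadjusted Cuffdiff p under 0.05. A Bonferroni adjustment left 0 members in either subset, as p-values in the tables go no lower than 5e-05. Requiring a log2 change of 1 or more in size also left 0 in either. In Ly6Clow monocytes the 6 calls were 5 at q under 0.01 and 7 at an unadjusted Cuffdiff p under 0.05. The calls were again 6 when adjusted over genes with at least 1 FPKM. To count Hspa1a and Hspa1b as 1 gene, Hspa1a was left out. The 5 calls that remained follow from Hspa1a being among the 6, so this is no test. Shares of all tested genes were not counted under these alternatives, so the counts have no background beside them.

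Median log2 fold changes are given for inducible, constitutive and mitochondrial members in that order. With a pseudocount of 1 they were 0.37, 0.15 and 0.61 in Ly6Clow and 0.145, 0.155 and 0.29 in Ly6Chigh monocytes, the inducible median then being that of Hspa1a, which lies near 1 FPKM. With a pseudocount of 0.1 the inducible median was 0.30 in Ly6Chigh monocytes. Subtracting the median of all genes gave 0.33 for inducible and 0.295 for mitochondrial members in Ly6Chigh and 0.16 for constitutive members in Ly6Clow monocytes. With equal total FPKM they were 0.53, 0.14 and 0.60 in Ly6Clow and 0.37, 0.20 and 0.34 in Ly6Chigh monocytes. With Hsp90aa1 and Dnaja1 exchanged between classes, the inducible and constitutive medians were 0.26 and 0.52 in Ly6Clow and 0.16 and 0.41 in Ly6Chigh monocytes.

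No paired analysis was possible because the columns carry no replicate number, and leaving out a replicate was not run for the same reason. Depth is unknown, which limits the low Hspa1a and Hspa1b most.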
